A study of Mus musculus with 10 samples.

Results

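Chrna4, Hes6, Lmntd2, Fxyd7 and Ppp1r9a are 5 genes, of 55487 with a row in both liver tables, that were grouped because their counts were higher in regenerating mouse liver after SSO than after vehicle. They were named from that difference, so their values in the SSO comparison are given as a description, without a test. The rule did not use the diet comparison, although earlier results of both experiments were known, and there the 5 genes were tested.

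Livers came from C57BL/6J mice that the labels give as males aged 8 weeks, and all had undergone partial hepatectomy (PHx), surgery that leaves a remnant of the liver to grow back. In the inhibitor experiment, SSO at 40 mg/kg or its solvent (vehicle) was given 1 day before PHx, liver was taken 48 h after surgery, and each group had 4 libraries; the labels speak of 8 mice per group and do not say whether a library is 1 mouse. In the diet experiment, mice ate chow or a high-fat diet (HFD) during the 7 days up to PHx, liver was taken 40 h after surgery, and each group had 3 libraries from 3 individuals. SSO is not spelled out in the labels; it is the usual short form of sulfosuccinimidyl oleate, which blocks the uptake of fatty acids by the receptor CD36.

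Most of these genes are better known from nerve cells than from liver. Chrna4 encodes a ligand-binding subunit of the neuronal nicotinic acetylcholine receptor, a cation channel opened by acetylcholine, and in brain its product pairs mainly with that of Chrnb2. Hes6 is a basic helix-loop-helix protein of the Hes family, whose other members repress transcription downstream of Notch; Hes6 is known for opposing Hes1 and favouring the differentiation of neurons. Fxyd7 is a small membrane protein of the FXYD family, which tunes the sodium pump (Na,K-ATPase) and is best known from brain. Ppp1r9a, or neurabin, binds actin and brings protein phosphatase 1 to dendritic spines. Lmntd2 carries a lamin tail domain, a fold shared with the nuclear lamins.

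All 5 are protein-coding genes annotated on GRCm38. Chrna4 (ENSMUSG00000027577) lies at chr2:181018380-181043546 on the minus strand and has 5022 bases of exon. Hes6 (ENSMUSG00000067071) lies at chr1:91411483-91414038 on the minus strand and is the most compact of the 5, with a span of 2.56 kb and 1808 bases of exon. Lmntd2 (ENSMUSG00000025500) lies at chr7:141209992-141214080 on the minus strand, and 3.01% of its 2128 exon bases are shared with Lrrc56 on the other strand, from which reads cannot be separated because the strand setting of the counting is not given in the sources used here. Fxyd7 (ENSMUSG00000036578) lies at chr7:31042513-31051467 on the minus strand with 693 bases of exon, in a cluster with Fxyd1 and Fxyd5. Ppp1r9a (ENSMUSG00000032827) lies at chr6:4902917-5165661 on the plus strand and spans 263 kb, with 14531 bases of exon.

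Sequence just before a RefSeq transcription start was compared among the 4 genes that have an entry in the RefSeq promoter table for GRCm38.p6, to show which promoter letters they share. Fxyd7 had no entry. The windows of Chrna4 and Hes6 lie inside the gene spans given above, downstream of the outer 5′ ends used for neighbour distances. The RefSeq start of Chrna4 is 102 bases from the nearest annotated start of a protein-coding transcript. Windows began 250 bases before the RefSeq start and were kept only where no exon lay: bases -250 to -129 for Chrna4 (chr2:181039306-181039427, minus strand), -250 to -1 for Hes6 (chr1:91413223-91413472, minus strand), -250 to -1 for Lmntd2 (chr7:141214081-141214330, minus strand) and -250 to -59 for Ppp1r9a (chr6:4902725-4902916, plus strand). Each reads 5′ to 3′ on the strand of the gene, and capitals mark, on either strand, the letters of a GC box, a CCAAT box or a TATA box.
Chrna4: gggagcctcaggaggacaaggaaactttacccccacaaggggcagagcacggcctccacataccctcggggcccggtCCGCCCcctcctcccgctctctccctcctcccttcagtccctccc
Hes6: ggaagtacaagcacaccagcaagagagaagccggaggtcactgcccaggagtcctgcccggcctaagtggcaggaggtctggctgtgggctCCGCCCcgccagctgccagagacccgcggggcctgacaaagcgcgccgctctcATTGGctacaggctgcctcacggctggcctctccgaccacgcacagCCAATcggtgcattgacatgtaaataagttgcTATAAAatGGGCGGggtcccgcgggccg
Lmntd2: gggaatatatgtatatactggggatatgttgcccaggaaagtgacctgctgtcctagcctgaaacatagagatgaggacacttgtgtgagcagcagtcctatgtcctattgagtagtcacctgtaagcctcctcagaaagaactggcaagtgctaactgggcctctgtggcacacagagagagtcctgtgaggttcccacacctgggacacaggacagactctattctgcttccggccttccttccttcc
Ppp1r9a: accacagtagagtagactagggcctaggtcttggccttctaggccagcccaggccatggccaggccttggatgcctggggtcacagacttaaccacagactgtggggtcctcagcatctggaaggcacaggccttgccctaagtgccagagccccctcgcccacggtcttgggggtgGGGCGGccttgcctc

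The 4 windows had little in common. The Hes6 window held the most elements: a TATA box (TATAAA) starting at base -28, CCAAT boxes at -106 and -60, GC boxes (GGGCGG) at -159 and -20, and 17 CpG dinucleotides. On either strand, 12.3% of all 32536 promoter windows of 250 bases held the TATA box letters, 33.8% a CCAAT box and 33.0% a GC box. Chrna4 and Ppp1r9a each held 1 GC box, at -173 and -73, a match found in 13.2% of all windows cut to the 122 bases of Chrna4 and in 23.4% of those cut to the 192 bases of Ppp1r9a. Lmntd2 held none of these 3 elements. GC content was 68.0% for Chrna4, 64.0% for Hes6, 63.5% for Ppp1r9a and 50.8% for Lmntd2. The median over all promoters was 52.4%, in windows of 250 bases, longer than those of Chrna4 and Ppp1r9a. Of the letters bound by Hes proteins, the N-box (CACNAG) occurred in Chrna4, Hes6 and Lmntd2. It was found in 36.7% of all windows of 250 bases and in 19.9% of those cut to the 122 bases of Chrna4. The E-box CACGTG and the class C site (CACGNG) had no match in any of the 4 windows. The letters TGGGAA, a core bound by the Notch effector RBPJ, occurred in Lmntd2 and in 21.6% of all windows of 250 bases. TGACNNNGC, the core of the antioxidant response element, occurred in Hes6 and in 10.2% of them. The cyclic AMP response element TGACGTCA and the E2F sites TTTCGCGC and TTTGGCGC had no match.

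Library totals ran from 25.2 to 30.4 M counts in the inhibitor experiment and from 31.9 to 39.9 M in the diet experiment. Levels are given as CPM, counts scaled to a common library size, on totals adjusted by the trimmed mean of M-values (TMM), and a count of 0 allows up to 3 counts, or 0.0817 to 0.136 CPM and 0.0770 to 0.0922 CPM in the respective experiments. The vehicle libraries were unlike one another: the share of counts from the mitochondrial genome was 4.99%, 22.5%, 11.5% and 9.15% in vehicle 1 to 4, against 15.2% to 17.6% in the SSO libraries. All 8 inhibitor libraries had Xist at 698 to 1772 CPM and 0 counts from Y-linked genes, which goes against their male label, whereas the diet libraries had Xist at 0 to 0.620 CPM and 4322 to 6709 Y-linked counts. Hepatocyte markers summed to 74910 to 113200 CPM in vehicle and 73120 to 95540 CPM in SSO libraries, so the labelled tissue was present in all of them.

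Chrna4, the channel subunit, had the widest difference of the 5 genes between SSO and vehicle livers. Vehicle 1 to 4 held 250, 1043, 502 and 140 counts, or 8.26, 47.3, 13.7 and 4.80 CPM, and SSO 1 to 4 held 14706, 17708, 12956 and 12303 counts, or 546, 645, 462 and 440 CPM. Every SSO library lay far above every vehicle library, and the lowest SSO library was 9.29-fold above vehicle 2, the highest of the controls. The mean went from 18.5 ± 19.6 CPM (SD, n = 4) to 523 ± 93.0 CPM (SD, n = 4), a log2 fold change of 4.83 ± 0.71 (SE). Vehicle libraries alone spanned 9.87-fold, against 1.47-fold among SSO libraries, and leaving out vehicle 2 moved the log2 fold change to 5.87. Vehicle 2 also had the highest mitochondrial share, whose part in this level was not tested. Per kb of exon, the Chrna4 level lay at percentile 56.6 of the tested genes in vehicle and at percentile 96.9 in SSO livers.

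Hes6, the transcription factor, was already well expressed in vehicle livers, at percentile 90 per kb of exon. Vehicle 1 to 4 held 946, 1438, 1239 and 1514 counts, or 31.2, 65.3, 33.7 and 51.9 CPM, and SSO 1 to 4 held 4451, 4713, 4444 and 4344 counts, or 165, 172, 158 and 155 CPM. The groups did not overlap, with 2.38-fold between vehicle 2 and the lowest SSO library. The mean was 45.5 ± 16.1 CPM in vehicle and 163 ± 7.26 CPM in SSO livers (SD, n = 4 each), a log2 fold change of 1.84 ± 0.24 (SE). As with Chrna4, vehicle 2 was the highest control.

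Fxyd7, the pump regulator, had few counts in vehicle livers, though more than the 3 of the floor. Vehicle 1 to 4 held 12, 20, 36 and 14 counts (0.396, 0.908, 0.980 and 0.480 CPM). SSO 1 to 4 held 144, 114, 157 and 156 counts, or 5.35, 4.15, 5.60 and 5.58 CPM. The lowest SSO library, SSO 2, was 4.24-fold above vehicle 3, the highest control. Means were 0.691 ± 0.295 and 5.17 ± 0.689 CPM (SD, n = 4 each), and the log2 fold change was 2.90 ± 0.39 (SE).

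Ppp1r9a, the phosphatase scaffold, had the smallest difference and the tightest treated group. Counts in vehicle 1 to 4 were 184, 153, 388 and 198 (6.08, 6.94, 10.6 and 6.79 CPM), and those in SSO 1 to 4 were 580, 600, 610 and 608 (21.5, 21.8, 21.7 and 21.7 CPM). The SSO libraries were nearly identical, with a coefficient of variation of 0.573%, against 26.5% among vehicle libraries. At 580 to 610 counts, counting error alone would usually spread libraries more than this, so the closeness is not read as a trait of the gene. The mean went from 7.59 ± 2.01 to 21.7 ± 0.125 CPM (SD, n = 4 each), a log2 fold change of 1.51 ± 0.20 (SE). Here vehicle 3 was the highest control, still 2.04-fold below the lowest SSO library.

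Lmntd2, the lamin tail gene, held 72, 123, 124 and 87 counts in vehicle 1 to 4, or 2.38, 5.58, 3.37 and 2.98 CPM. SSO 1 to 4 held 473, 657, 457 and 592 counts, or 17.6, 23.9, 16.3 and 21.2 CPM. The groups were apart by 2.92-fold between vehicle 2 and SSO 3. The mean was 3.58 ± 1.40 CPM in vehicle and 19.7 ± 3.47 CPM in SSO livers (SD, n = 4 each), a log2 fold change of 2.47 ± 0.28 (SE).

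**Figure D1:**
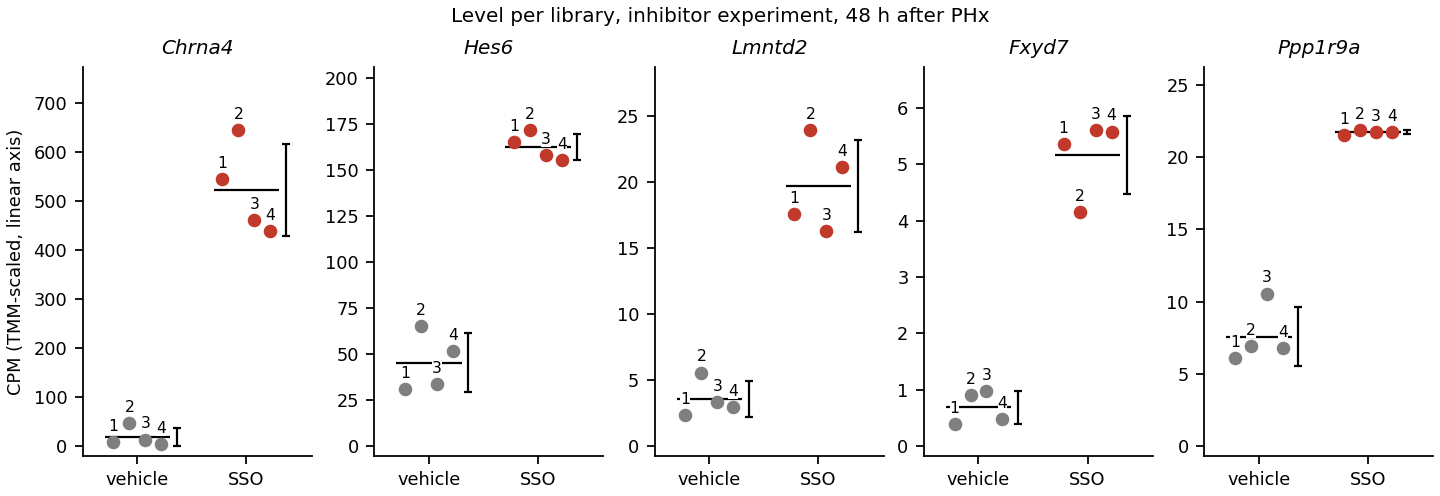
Level of each gene in CPM (linear axis, a scale of its own for each gene) in the 4 vehicle and 4 SSO libraries; points are libraries with their number, lines are means and bars the SD, cut at 0. All SSO points lie above all vehicle points for each of the 5 genes, and vehicle 2 is the highest control for Chrna4, Hes6 and Lmntd2.

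SSO and vehicle libraries were thus apart for 5 of the 5 genes, which is the difference they were chosen on, while 6.14% of the 15788 genes tested had all SSO libraries above all vehicle libraries. Control libraries varied more than treated ones for each gene, with coefficients of variation from 26.5% (Ppp1r9a) to 106% (Chrna4) in vehicle and from 0.573% (Ppp1r9a) to 17.8% (Chrna4) in SSO livers.

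Compared per kb of exon, the order of the 5 genes changed between the groups. In vehicle livers Hes6 led at 25.2 ± 8.88 CPM per kb, followed by Chrna4 at 3.69 ± 3.89, Lmntd2 at 1.68 ± 0.657, Fxyd7 at 0.997 ± 0.426 and Ppp1r9a at 0.523 ± 0.139 CPM per kb (SD, n = 4). The libraries of each of these neighbours in the order overlapped, except those of Hes6 and Chrna4. In SSO livers Chrna4 stood at 104 ± 18.5 CPM per kb beside Hes6 at 90.0 ± 4.01, and their libraries overlapped, at 87.6 to 128 and 85.9 to 94.9 CPM per kb. Lmntd2 at 9.28 ± 1.63 and Fxyd7 at 7.46 ± 0.994 CPM per kb overlapped too, and Ppp1r9a came last at 1.50 ± 0.00857 CPM per kb. Ppp1r9a remained a low transcript by this measure, at percentile 37.3 of the tested genes after SSO, while Lmntd2 reached percentile 77.8 and Fxyd7 percentile 74.2.

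In the diet experiment, which asks how fat accumulated before surgery bears on the regrowing liver, none of the 5 genes passed the test. By edgeR's quasi-likelihood test with Benjamini-Hochberg adjustment over 15589 genes, 0 of the 5 were called, beside 2.32% of all genes tested, and 0 were called by DESeq2 or limma-voom, which called 5.94% and 2.39% of all genes. At an unadjusted p under 0.05 stood 2 of the 5, Lmntd2 and Fxyd7, beside 15% of all genes. All 5 fitted log2 fold changes were below 0, where those with SSO were above 0, the difference they were chosen on. The share of all genes below 0 with HFD was not counted, and the median over all genes was -0.02. The fold change of Chrna4 turned positive with limma-voom, with a replicate block or without chow 1. That of Ppp1r9a turned positive without chow 1. The difference between the experiments was not tested: the tables were normalized separately, and the hours after surgery and the Xist and Y-linked transcripts differed between them.

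Chrna4 in the diet experiment was a matter of a single library. Chow 1 to 3 held 542, 4 and 4 counts (13.9, 0.105 and 0.123 CPM), and HFD 1 to 3 held 89, 46 and 11 counts (2.45, 1.39 and 0.325 CPM). Chow 1 was thus 133-fold above chow 2, and the other chow libraries lay below every HFD library, near the floor set by 3 counts. The log2 fold change was -1.76 ± 1.81 (SE) with an edgeR adjusted p of 0.721, and without chow 1 it was 3.58 with an adjusted p of 0.0770. Chow 1 also had the highest mitochondrial share of the diet libraries, 9.96%, whose part in this level was not tested. Over the 12 alternatives run, the adjusted p ranged from 0.0770 to 0.962.

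Hes6 also peaked in chow 1, though less steeply. Chow 1 to 3 held 3629, 1087 and 1427 counts (93.2, 28.4 and 43.9 CPM) and HFD 1 to 3 held 1277, 1008 and 767 counts (35.2, 30.5 and 22.7 CPM). Means were 55.2 ± 33.8 and 29.4 ± 6.34 CPM (SD, n = 3 each), with chow 2 inside the range of the HFD libraries. The log2 fold change of -0.91 ± 0.43 (SE) had an edgeR adjusted p of 0.406 and shrank to -0.29 without chow 1.

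Fxyd7 was sparse in both diets: chow 1 to 3 held 47, 8 and 45 counts (1.21, 0.209 and 1.38 CPM) and HFD 1 to 3 held 11, 0 and 4 counts (0.303, 0 and 0.118 CPM). The groups overlapped, since HFD 1 exceeded chow 2, and the 0 in HFD 2 allows up to 0.0907 CPM. The log2 fold change was -2.67 ± 1.01 (SE), with an unadjusted p of 0.0280 and an edgeR adjusted p of 0.259. Here chow 1 did not stand alone, and the log2 fold change without it was -2.43.

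Lmntd2 was the only 1 of the 5 whose chow and HFD libraries did not overlap, as was the case with HFD below chow for 10.8% of all genes tested. Chow 1 to 3 held 118, 72 and 119 counts (3.03, 1.88 and 3.66 CPM) and HFD 1 to 3 held 68, 51 and 56 counts (1.87, 1.54 and 1.65 CPM). The separation was thin, for chow 2 and HFD 1 were almost level. The log2 fold change of -0.75 ± 0.32 (SE) had an unadjusted p of 0.0449 and an edgeR adjusted p of 0.318.

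Ppp1r9a differed least between the diets. Chow 1 to 3 held 863, 523 and 435 counts (22.1, 13.7 and 13.4 CPM) and HFD 1 to 3 held 439, 617 and 464 counts (12.1, 18.7 and 13.7 CPM). The libraries of both diets were interleaved, and the log2 fold change was -0.15 ± 0.24 (SE) with an edgeR adjusted p of 0.836.

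**Figure D2:**
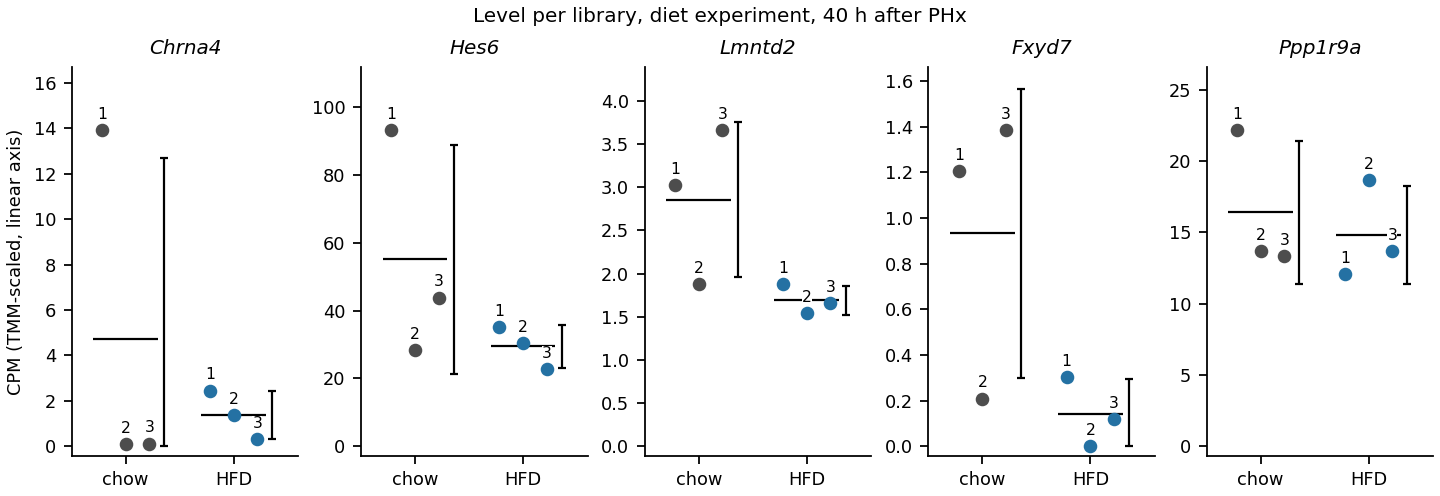
Level of each gene in CPM (linear axis, a scale of its own for each gene) in the 3 chow and 3 HFD libraries; points are libraries with their number, lines are means and bars the SD, cut at 0. Chow 1 stands above the rest for Chrna4 (13.9 CPM) and Hes6 (93.2 CPM), and only Lmntd2 has all HFD points below all chow points.

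**Figure D3:**
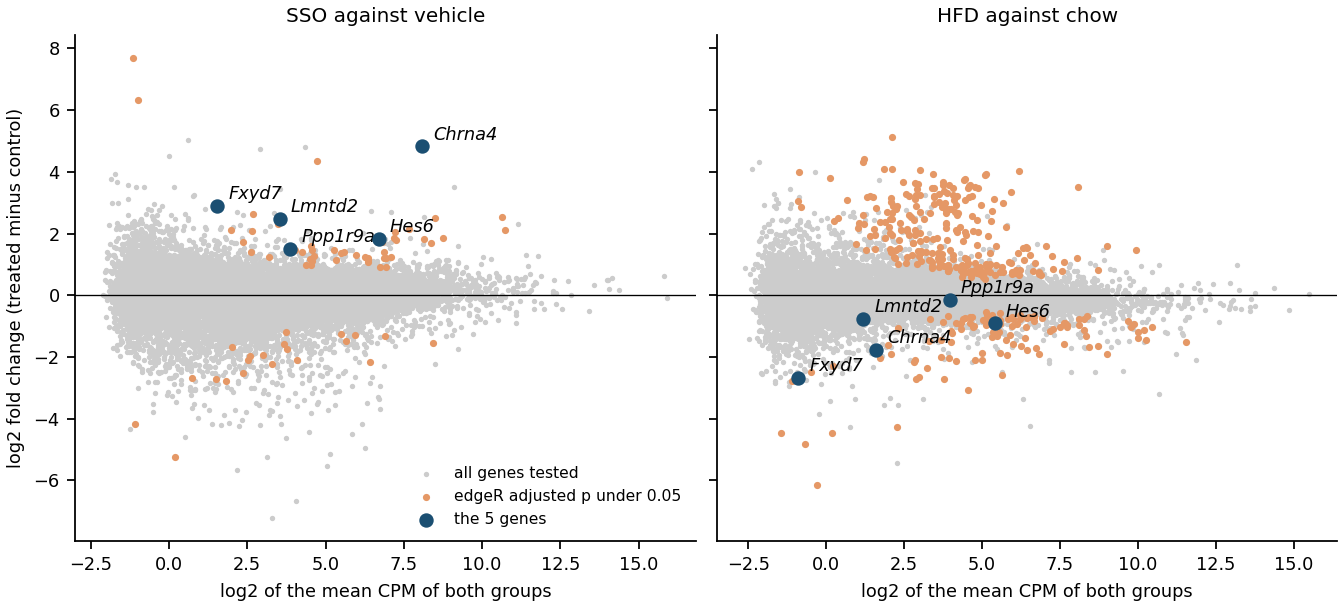
Log2 fold change of every gene tested against the log2 of its mean CPM over both groups, for SSO against vehicle (15788 genes) and HFD against chow (15589 genes); orange points passed edgeR's test at an adjusted p under 0.05 and dark points are the 5 genes. All 5 lie above 0 in the SSO comparison, with Chrna4 the highest of them at 4.83. In the diet comparison all 5 lie below 0 and among the uncalled genes, though Chrna4 and Ppp1r9a turned positive without chow 1.

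The relatives and partners of the 5 genes were looked up in 8 lists holding 103 genes. In the inhibitor experiment 67 of them could be tested and edgeR called 0, beside 0.45% of all genes. At an unadjusted p under 0.05 there were 4 higher and 11 lower, beside 7.96% and 12.5% of all genes, and the calls were 5 by DESeq2 and 0 by limma-voom, beside 7.51% and 0.431% of all genes. Leaving out vehicle 2 raised the number called to 14 of 70, of which 4 were higher and 10 lower. In that same fit, 2646 of all 16339 genes tested were called. With all libraries kept, the median log2 fold change of the 67 tested list genes was -0.15, beside -0.04 over all genes tested. In the diet experiment edgeR called 0 of 65. The unadjusted p was under 0.05 for 7 higher and 4 lower genes, beside 7.52% and 7.47% of all genes, the calls were 3 by DESeq2 and 1 by limma-voom, beside 5.94% and 2.39% of all genes, and the median was -0.02, as was that of all genes to 2 decimals.

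Most other nicotinic receptor subunits were close to silent in these livers. Of 15 subunit genes besides Chrna4, 8 had any count in the inhibitor libraries and 4 could be tested: Chrna2, Chrnb1, Chrnb2 and Chrne. EdgeR and limma-voom called 0 of these 4, DESeq2 called 1, and 1 was lower at an unadjusted p under 0.05. Of 12 genes of receptor assembly and acetylcholine handling, 4 were tested, with 0 calls by edgeR, DESeq2 or limma-voom and 1 lower at an unadjusted p under 0.05. Chrnb2, whose product partners that of Chrna4 in brain, was at 3.40 ± 0.977 CPM in vehicle and 3.79 ± 0.460 CPM in SSO livers (SD, n = 4 each), with a log2 fold change of 0.16 and an edgeR adjusted p of 0.797. Chrne, a subunit of the muscle receptor and the highest of the tested 4 per kb after SSO, had a log2 fold change of 1.60. Its groups overlapped and its edgeR adjusted p was 0.422. Chrnb1, also of the muscle receptor, had a log2 fold change of -1.93 with an edgeR adjusted p of 0.112. All SSO libraries of Chrnb1 lay below all its vehicle libraries. Ric3, a chaperone of receptor assembly, had a log2 fold change of -1.97 with an edgeR adjusted p of 0.144. Its groups did not overlap either, at means under 1 CPM. Bche, the plasma cholinesterase made by liver, was level at 107 ± 27.7 and 102 ± 9.92 CPM. With HFD, Chrnb2 had a log2 fold change of -1.07 and an edgeR adjusted p of 0.227.

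Of the 9 other Hes and Hey repressors beside Hes6, 4 were tested and 0 were called by edgeR in the inhibitor experiment, with 0 at an unadjusted p under 0.05 and 0 by DESeq2 or limma-voom. Hes1, the main Notch target of the family in liver, was at 21.4 ± 11.4 CPM in vehicle and 15.2 ± 3.79 CPM in SSO livers (SD, n = 4 each), with a log2 fold change of -0.49 and an adjusted p of 0.447, and at 17.9 ± 4.69 and 22.1 ± 8.25 CPM in chow and HFD livers (SD, n = 3 each). The 20 tested genes of Notch signalling had a median log2 fold change of -0.11 and 0 calls by edgeR, DESeq2 or limma-voom in the inhibitor experiment, with 1 at an unadjusted p under 0.05. That gene was Rbpj, the DNA-binding partner of Notch, with a log2 fold change of -0.72 and an edgeR adjusted p of 0.176.

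Of the 6 other FXYD genes, 3 were tested in the inhibitor experiment, with 0 calls by edgeR, DESeq2 or limma-voom and 1 higher at an unadjusted p under 0.05. That gene, Fxyd1 or phospholemman, was the most abundant FXYD gene per kb, and its CPM was 170 ± 103 in vehicle and 312 ± 18.4 in SSO livers (SD, n = 4 each). Its log2 fold change was 0.88 with overlapping groups and an edgeR adjusted p of 0.208. Fxyd5, also called dysadherin, had a log2 fold change of -1.16 and an adjusted p of 0.293. Of 8 sodium pump subunit genes, 6 were tested, with 0 calls by edgeR or limma-voom, 2 by DESeq2 and 3 lower at an unadjusted p under 0.05. Atp1b3, a beta subunit of the pump, had a log2 fold change of -1.02 and an edgeR adjusted p of 0.106, and its groups did not overlap.

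Around Lmntd2, 10 of 11 genes of lamins and lamin partners were tested, and 0 were called by edgeR in the inhibitor experiment, with 3 lower at an unadjusted p under 0.05, 1 call by DESeq2 and 0 by limma-voom. Lmna, which encodes the A-type lamins, was at 124 ± 44.0 CPM in vehicle and 65.0 ± 7.09 CPM in SSO livers (SD, n = 4 each), with a log2 fold change of -0.94 and an adjusted p of 0.112. With HFD the same gene had a log2 fold change of 0.59 and an adjusted p of 0.0976. The lamin list held the 3 DESeq2 calls and the 1 limma-voom call of the diet experiment among all 8 lists. Around Ppp1r9a, 16 of 21 genes of protein phosphatase 1 and its scaffolds were tested, with 0 calls by edgeR, 3 higher and 2 lower at an unadjusted p under 0.05, 1 call by DESeq2 and 0 by limma-voom. Ppp1r9b, or spinophilin, the closest relative of Ppp1r9a, had a log2 fold change of -1.02 with an adjusted p of 0.252. Ppp1r3b, which directs the phosphatase to glycogen in liver, was at 241 ± 84.1 CPM in vehicle and 533 ± 207 CPM in SSO livers. The log2 fold change was 1.15 with an edgeR adjusted p of 0.121. Its groups did not overlap, as was the case with SSO above vehicle for 6.14% of all genes tested.

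Markers of the other cell types that a liver sample could hold were examined beside the 5 genes. Of 12 neuron and Schwann cell markers, Snap25, Elavl4, Th and Sox10 were among those at 0 counts in all 8 inhibitor libraries, and 9 stayed under 1 CPM in each. Their sum was 3.90 to 6.78 CPM in vehicle and 5.36 to 6.56 CPM in SSO libraries. Of 8 neuroendocrine markers, Chga, Scg3 and Neurod1 were at 0, with sums of 0.343 to 1.49 CPM in vehicle and 0.334 to 0.728 CPM in SSO libraries. Of 9 pancreas markers, 6 were at 0, with sums of 8.33 to 18.7 and 9.07 to 12.7 CPM. Sums for other cells varied mainly among vehicle libraries: monocyte and neutrophil markers summed to 24.4 to 312 CPM in vehicle and 31.8 to 42.5 CPM in SSO libraries, Kupffer cell markers to 104 to 483 and 198 to 345 CPM, and stellate cell and fibroblast markers to 173 to 640 and 184 to 283 CPM. Cholangiocyte markers summed to 66.0 to 186 CPM in vehicle and 62.8 to 75.0 CPM in SSO libraries, with Spp1 the largest term at means of 83.5 and 28.0 CPM. Krt19, a keratin of bile duct cells, had the opposite order of means, with 1.52 ± 0.711 CPM in vehicle and 3.39 ± 1.34 CPM in SSO livers (SD, n = 4 each), no overlap between the groups and an edgeR adjusted p of 0.192. In bulk liver, fewer cells of a type and less RNA per cell cannot be told apart, and the part of these markers in the levels of the 5 genes was not tested.

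Genes of the same stretch of chromosome were compared with the 5 by taking every annotated gene whose 5′ end lay within 100 kb. Of 50 such neighbours, 27 were tested in the inhibitor experiment and edgeR called 0, with 9 at an unadjusted p under 0.05, beside 20.5% of all genes. DESeq2 called 3 of them (Col20a1, Per2 and Lrrc56) and limma-voom 1 (Col20a1), beside 7.51% and 0.431% of all genes. Of the 27 log2 fold changes 19 were above 0, beside 47% of all genes, with a median of 0.34, beside -0.04 over all genes, and a range from -1.42 to 1.83. The neighbour of Chrna4 at 57 kb, the collagen gene Col20a1, was at 8.30 CPM in vehicle and 22.5 CPM in SSO livers, a log2 fold change of 1.44 with an edgeR adjusted p of 0.0899. Rassf7, whose 5′ end lies at -1.78 kb from that of Lmntd2 in the direction of its transcription, had a log2 fold change of 0.72 with an adjusted p of 0.152, and Lrrc56, which overlaps Lmntd2, one of 1.04 with an adjusted p of 0.147. Per2, a clock gene at -45.3 kb from Hes6, had a log2 fold change of 0.74 in the inhibitor experiment (adjusted p of 0.129) and -1.17 in the diet experiment (adjusted p of 0.0717). None of the neighbours of Ppp1r9a had enough counts for the test in the inhibitor experiment. In the diet experiment 26 neighbours were tested and edgeR called 0, beside 2.32% of all genes, with 4 at an unadjusted p under 0.05, beside 15% of all genes. DESeq2 called 2 of them (Per2 and Irf7) and limma-voom 0, and the median log2 fold change was -0.12, beside -0.02 over all genes.

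**Figure D4:**
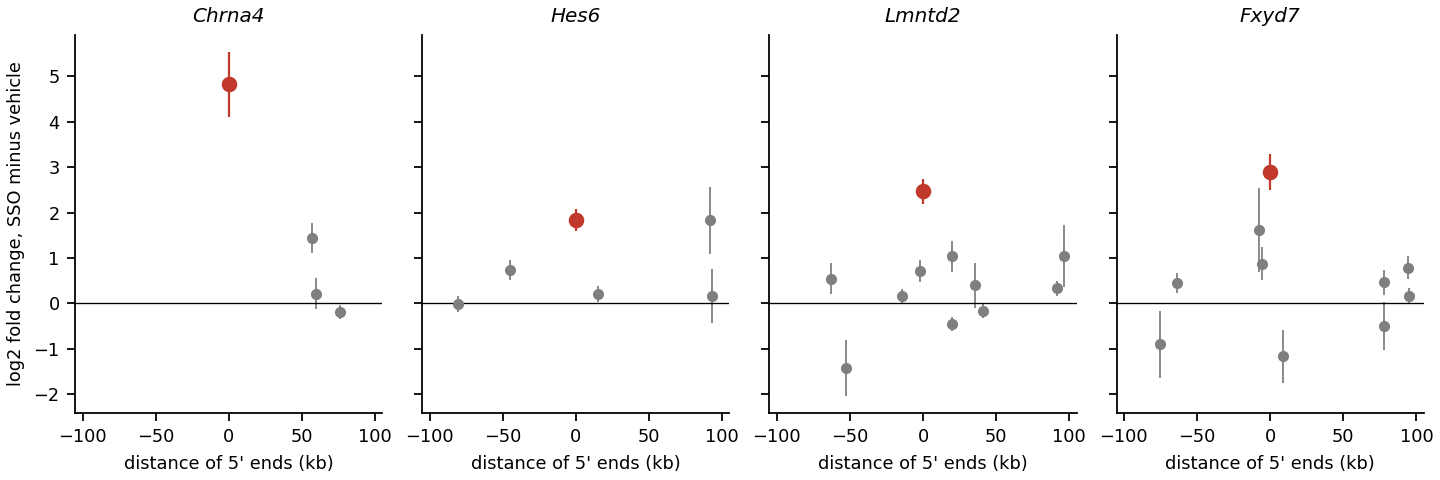
Log2 fold change, SSO minus vehicle, of the tested neighbours (grey) against the distance of their 5′ ends from that of Chrna4, Hes6, Lmntd2 or Fxyd7 (red, at 0 kb), positive in the direction of that gene's transcription; bars are the SE of the fit. The red points lie well above the grey points of their panel, other than for Hes6, at 1.84 beside Espnl at 1.83.

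The genes whose level over the 8 inhibitor libraries was most like that of each of the 5 were ranked by Pearson's r of log2 CPM among 11196 candidates, as a description in which the gap between SSO and vehicle carries most of each r. For Chrna4 they were Ralgps1 (r = 0.996), Pnpla3 (r = 0.992) and Lmntd2 (r = 0.984). Pnpla3, a lipid droplet protein gene, was at 2.54 CPM in vehicle and 51.0 CPM in SSO livers and was also among the 3 most like Fxyd7 (r = 0.981). Hes6 was closest to Nid2, C4a and Il11ra1, at r = 0.992 each. Lmntd2 was closest to Ankrd24 (r = 0.989), Gapdh (r = 0.985) and Ralgps1 (r = 0.985). Fxyd7 had Col27a1 at r = 0.987 and Mindy2 at r = 0.983 beside Pnpla3, and Ppp1r9a had Col27a1 at r = 0.984, Neat1 at r = 0.981 and Atf4 at r = 0.964. Many more candidates had r over 0.9: 146 for Chrna4, 278 for Hes6, 224 for Lmntd2, 93 for Fxyd7 and 77 for Ppp1r9a. With the group means removed, r fell to 0.953 for Chrna4 with Ralgps1 and to 0.819 for Chrna4 with Lmntd2. It was 0.154 for Chrna4 with Ppp1r9a and -0.26 for Hes6 with Ppp1r9a.

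A list of 16 genes of fatty acid synthesis and its control was set beside the 5 genes after their values had been seen, and so it is described without a test. In the inhibitor experiment the list had a mean log2 CPM of 6.25, 7.30, 6.04 and 6.67 in vehicle 1 to 4 and 8.37, 8.88, 8.27 and 8.53 in SSO 1 to 4, with a median log2 fold change of 1.71. In the diet experiment it was 7.34, 5.86 and 5.86 in chow 1 to 3 and 5.85, 5.60 and 5.12 in HFD 1 to 3, with a median of -0.99. The library that was high for Chrna4 and Hes6 among its controls was high for this list as well. Vehicle 2 was the highest vehicle library for 13 of the 16 genes and chow 1 the highest chow library for 15 of the 16. How many of all genes tested peak in these libraries was not counted, so no link is read from this match. Fasn, the fatty acid synthase, was at 365, 735, 337 and 430 CPM in vehicle 1 to 4 and at 1984, 4404, 1768 and 2683 CPM in SSO 1 to 4. In chow 1 to 3 Fasn was at 965, 202 and 292 CPM, and in HFD 1 to 3 at 196, 147 and 106 CPM. Thrsp, a regulator of lipid synthesis, showed the same lone library, with 472, 27.3 and 28.0 CPM in chow 1 to 3 and 14.5, 9.31 and 4.28 CPM in HFD 1 to 3. Fxyd7 in both experiments, Ppp1r9a in the inhibitor experiment and Lmntd2 in the diet experiment had their highest control elsewhere. Among treated livers, SSO 2 was the highest for the list and for Chrna4, Hes6 and Lmntd2, and the lowest for Fxyd7. For Ppp1r9a the SSO libraries were nearly level, from 21.55 to 21.84 CPM, so their order is not read. Whether the 5 genes and this list share a cause was not tested.

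**Figure D5:**
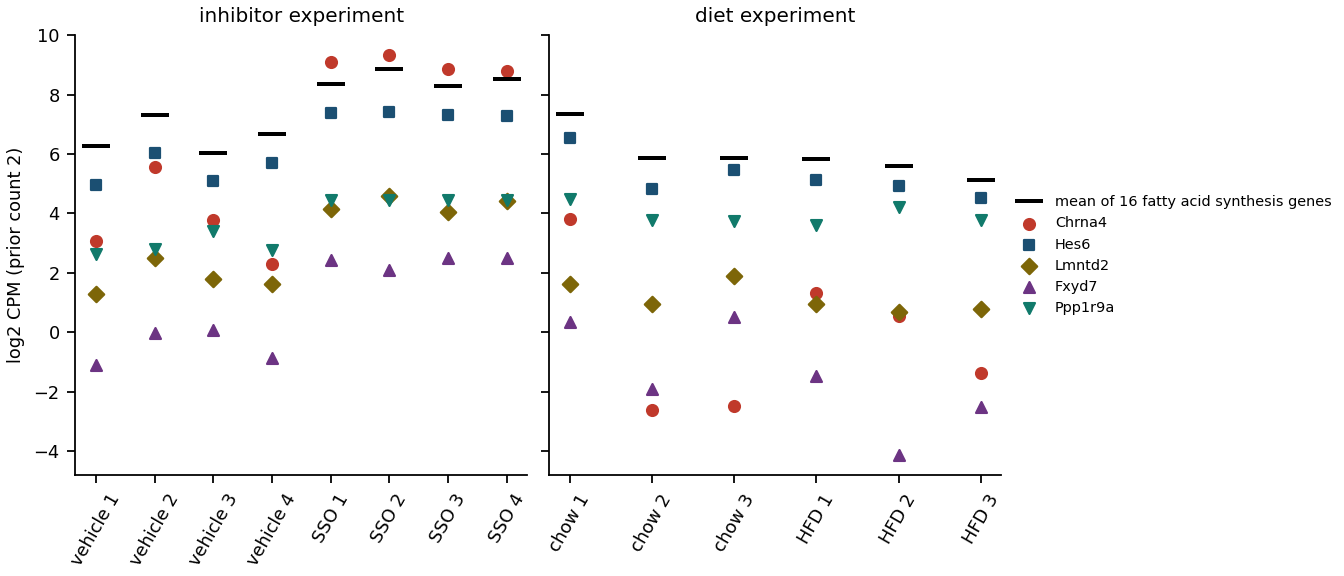
Log2 CPM of the 5 genes (symbols) and the mean log2 CPM of 16 fatty acid synthesis genes (black bars) in each library of both experiments, which were normalized separately. Among the controls, vehicle 2 and chow 1 carry the highest black bars (7.30 and 7.34) and the highest Chrna4 and Hes6 points.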

How the data were processed

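RNA of liver was selected with polyT, per the labels' protocols. The deposited values are whole-number read counts per Ensembl gene, not normalized by the authors; DESeq2, featureCounts 2.0.2, HISAT2 2.2.1, Trim Galore 0.6.1 and GRCm38 (mm10) are listed, without settings, in the submitters' processing notes. The labels hold 1 record per group, and columns were given to groups by their names. Of 55487 identifiers, 55227 matched a GENCODE M21 symbol. The 12 columns of a macrophage table with no gene or sample names that could be matched were not used here, so the planned macrophage comparisons were not run.

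The 5 genes and all lists were chosen with earlier results of these data known. Each table was fitted alone with edgeR 4.0.16 in R 4.3.3 (quasi-likelihood, robust, TMM scaling, filterByExpr), and p-values were adjusted over all genes tested by the Benjamini-Hochberg method at 0.05. CPM errors are SD, log2 fold change errors SE; log2 CPM has a prior count of 2. P-values measure the spread between libraries, which in the inhibitor experiment may be technical, and floors cover counting error only. No pair of libraries agreed within sampling noise. Named besides the 5 genes were the 3 genes most like each by Pearson's r (mean of at least 1 log2 CPM), called and most abundant members of 8 family and partner lists, and neighbours within 100 kb; other list members and the fatty acid synthesis genes were named after their values were seen. Alternatives were DESeq2 1.42.0, limma-voom (limma 3.58.1), scaling by library size, no filter, no mitochondrial transcripts, a replicate block and leaving libraries out. The fits were tested on simulated counts. Same-numbered libraries did not deviate together (correlations of -0.0748 to 0.0308 in the inhibitor and -0.106 to 0.0193 in the diet experiment), so numbers were not taken to pair them. Some members of the lists are not reported here by name.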

Additional observations from a re-analysis of the deposited data

How the results depend on the processing

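For the SSO comparison, all 15 alternatives kept the log2 fold change of each of the 5 genes above 0. No call is read for them there. Leaving out vehicle 1 and 3 together gave the lowest values for Chrna4 (4.35), Hes6 (1.48) and Lmntd2 (2.22) and called 62 genes. The log2 fold change ranged over leave-one-out fits from 4.52 to 5.87 for Chrna4, 2.70 to 3.14 for Fxyd7, 1.69 to 2.06 for Hes6, 2.32 to 2.76 for Lmntd2 and 1.42 to 1.73 for Ppp1r9a. The number of genes called moved far more, from 71 to 1186 with DESeq2, 37 with library size scaling, 205 without a filter on low counts, 47 with the replicate block, and 0 to 2646 on leaving out a single library (0 without vehicle 1 or any SSO library, 16 without vehicle 3, 364 without vehicle 4, 2646 without vehicle 2). For the diet comparison, the count moved from 361 to 926 with DESeq2, 672 without a filter, 206 with the replicate block, and 86 to 681 on leaving out a library, with 681 without chow 1. None of the 5 genes was called under any of the 12 diet alternatives. Chrna4 turned from -1.76 to 0.71 with limma-voom, 0.32 with the replicate block and 3.58 without chow 1, and Ppp1r9a from -0.15 to 0.14 without chow 1; leave-one-out ranges were -2.46 to 3.58 for Chrna4 and -0.35 to 0.14 for Ppp1r9a. Fxyd7 (-3.89 to -2.12), Hes6 (-1.22 to -0.29) and Lmntd2 (-0.98 to -0.54) stayed below 0 in those fits. The cause of these shifts was not tested. Library numbers do not pair the samples, and the replicate block is given only for completeness. Depth limits Fxyd7 and, in chow 2 and chow 3, Chrna4, where 8 counts or fewer back a value.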
